A study of Homo sapiens with 6 samples.

Results

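The 8 genes that encode intermediate filament proteins described here were measured in K562 cells given an iron chelator: the neurofilament genes NEFH, NEFM and NEFL, their neuronal partner INA (alpha-internexin), the mesenchymal filament gene VIM (vimentin), and the nuclear lamin genes LMNA, LMNB1 and LMNB2. These 8 genes, of 62252 in the annotation, were taken by name, and NEFH was chosen by its lower counts in the Chelator libraries of this same comparison. Its fall is therefore given as a description, without a test. K562 is a human erythroleukemia cell line that grows in suspension. The DMSO group was 3 libraries from cells given the solvent alone at a matched volume, and the Chelator group was 3 libraries from cells given 10 µM of the iron chelator 21H7, both overnight in the same culture medium. The groups represent 1 cell line, 1 dose and 1 time.

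Intermediate filament proteins share a coiled rod that pairs and packs into rope-like filaments without a bound nucleotide. Neurofilaments fill axons, where the light chain forms the core and the medium and heavy chains extend long tails from it. Those tails carry repeated lysine-serine-proline motifs that kinases modify. Vimentin forms the cytoplasmic network of mesenchymal and blood cells. Lamins form the meshwork under the inner nuclear membrane, and their A and B types differ in how long they keep a lipid anchor. Erythroid cells express vimentin early and lose it as they mature.

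The sequences that separate these products are short, and all come from GENCODE transcripts on build GRCh38, written 5′ to 3′ on the coding strand. The first shows the tail repeats of the heavy chain. It is codons 516 to 575 of the 1020 in its coding sequence, in exon 4 of 4 at chr22:29489186-29489365 (+ strand), with in-frame lysine-serine-proline codons in capitals.
NEFH tail: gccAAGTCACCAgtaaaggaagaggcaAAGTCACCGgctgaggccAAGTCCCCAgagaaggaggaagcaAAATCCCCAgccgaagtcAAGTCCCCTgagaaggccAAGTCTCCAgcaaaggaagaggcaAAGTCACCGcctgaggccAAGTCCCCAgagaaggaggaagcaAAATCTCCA
That stretch of 60 codons holds 9 of the 40 such motifs in the coding sequence. Within the transcript, 3.75% of all windows of 31 bases repeat an earlier one. None was found in an expressed transcript of a gene outside those described here. The other genes described here, NEFM, NEFL and INA among them, and transcripts close to 0 were not searched.

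The second set shows the coding ends of the lamins that carry a CaaX box, the last 4 codons before the stop codon, which begin with a cysteine codon and are in capitals here. Lamin C ends without one. The lamin A end lies at chr1:156139086-156139106, the LMNB1 end at chr5:126836244-126836264 and the LMNB2 end at chr19:2430911-2430931, the last on the - strand.
lamin A: cagaacTGCAGCATCATGtaa
lamin B1: agaagcTGTGCAATTATGtaa
lamin B2: agaggcTGCTACGTGATGtga
The box is the site at which a farnesyl group is joined to the protein, and the enzymes that act on it are among the genes described below.

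The libraries held 78615500 to 101094957 estimated counts each. The mean fragment length was 252 to 264 bases in the DMSO libraries and at most 218 bases in the Chelator libraries, and without overlap the effects of fragment length and of treatment cannot be told apart. All 12 erythroid markers of K562 cells were above a level of 1 TPM (a count divided by transcript length and by the library's total of such values) in every library. Over all genes DMSO replicate 2 stood apart within its group, at a chi-square per gene of 57.3 and 40.1 against DMSO replicates 1 and 3, which differed from each other by 7.97, and at a mitochondrial share of 4.42% of counts against 7.06% and 6.65%. Without it, none of the 7 members other than NEFH changed sides of an adjusted p of 0.05 in DESeq2, and LMNB1 stayed just under it at 0.047. Of 15 neuronal genes tested, 5 were at 0 in DMSO replicates 1 and 2 and above 0 in DMSO replicate 3, a pattern noticed after the values were seen and held by 1.07% of all genes tested, which were not matched for level. Over all genes, 2646 of the 24542 with an adjusted p (10.8%) passed an adjusted p under 0.05 with a log2 fold change beyond 1 in either direction in DESeq2. Of these, 75.9% were higher. The libraries were also centred: the Chelator libraries were rescaled by a common factor so that the average log2 change became 0. Then 58.7% of the genes called were higher, and the median over all genes moved from 0.016 to -0.17. RNA was selected for polyadenylated transcripts and sequenced as read pairs. The labels name replicates without saying that they came from separate cultures, so p-values measure the spread between these libraries. As bulk RNA, fewer cells with a transcript and less of it per cell cannot be told apart.

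NEFH was at 0.251 of its DMSO level, VIM rose 2.35-fold, and of the lamin genes LMNB1 was 1.13-fold higher, LMNB2 was lower at 0.806 of its DMSO level and LMNA did not pass. NEFL, NEFM and INA did not pass either. Of the 7 members other than NEFH, 3 passed an adjusted p under 0.05 (DESeq2, over all genes), with 2 higher and 1 lower. Over all genes 37.7% passed, made up of 19.5% higher and 18.3% lower, so this share is near the background. The normalized counts of the groups did not overlap for 3 of the 7, beside 49.2% of all genes. VIM, 1 of the 7, also passed the log2 limit of 1, beside 8.18% of all genes that did so as higher and 2.6% as lower; NEFH did so as lower, which its choice fixed.

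**Figure D1:**
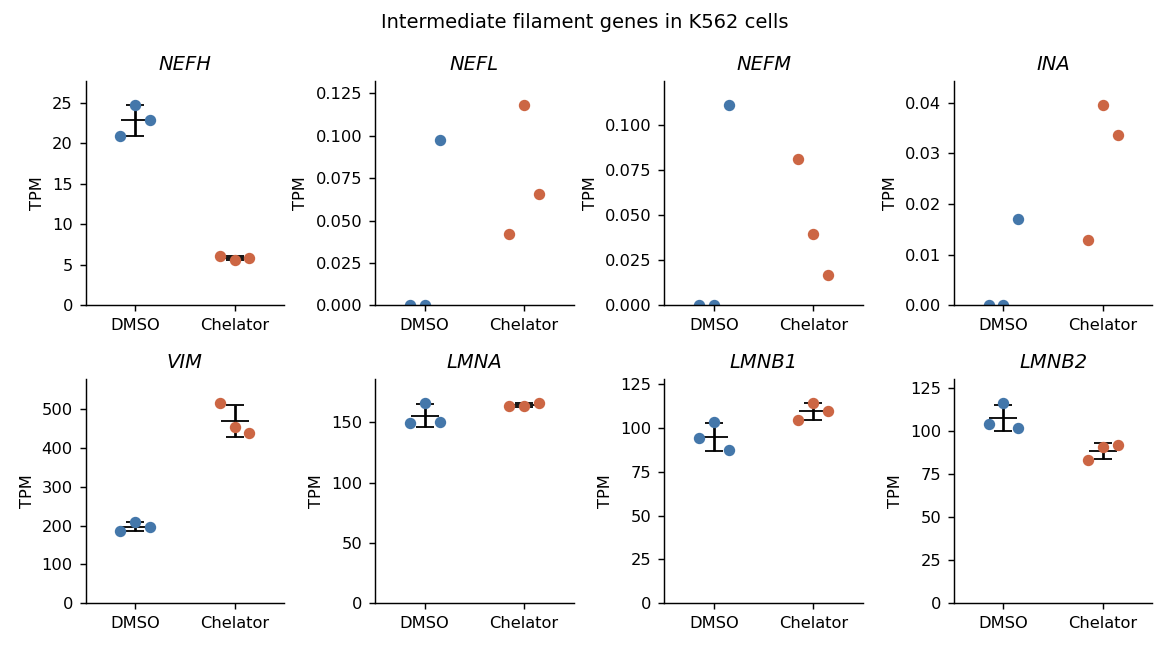
TPM of each gene (vertical axis, from 0 and separate for each gene) in the 3 DMSO and the 3 Chelator libraries, with points for libraries and bars for mean ± SD, which are left out for NEFL, NEFM and INA. NEFH points fell from between 20.8 and 24.7 TPM to between 5.62 and 6.10 TPM, and VIM points rose from at most 209 to at least 440.3 TPM.

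NEFH, the heavy neurofilament chain, lies at chr22:29480218-29491390 (+ strand). It had 6580.1, 6436 and 6299 counts in DMSO against 2014, 2002 and 1757 in Chelator. Its level was 20.8, 24.7 and 22.9 TPM in DMSO and 6.10, 5.62 and 5.80 TPM in Chelator. Every Chelator library was below every DMSO library, and the 3 Chelator libraries lay within 0.24 TPM (SD) of their mean of 5.84, against 1.94 TPM about a mean of 22.8 in DMSO. The log2 fold change was -1.99 (SE 0.084), that is, a level 3.98-fold higher in DMSO, and 450 genes of the 24542 fell further. It ran from -2.17 to -1.94 over all the alternative processings. NEFH is annotated with 1 transcript, so its fall could not be divided between isoforms. In neurons the heavy chain assembles with the light chain, whose gene was nearly without reads here.

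NEFL, NEFM and INA, the genes of the light chain, the medium chain and alpha-internexin, were close to 0. NEFL had 0, 0 and 21 counts in DMSO and 11, 27 and 15 in Chelator. NEFM had 0, 0 and 24 counts in DMSO and 17, 11 and 4 in Chelator. INA had 0, 0 and 3.67 counts in DMSO and 3.33, 11 and 8 in Chelator. The only DMSO library with reads was replicate 3 for all 3 genes, and its values fell inside or above the Chelator range for NEFL and NEFM. A count of 0 allows up to 3 counts, or 0.033 and 0.036 CPM in DMSO replicates 1 and 2, for counting error only. None of the 3 passed: the log2 fold changes were 1.11 (SE 1.28, adjusted p 0.56), 0.22 (SE 1.43, adjusted p 0.93) and 2.13 (SE 1.62, adjusted p 0.33) in DESeq2. Without DMSO replicate 3, the only DMSO library with reads, all 3 were under an adjusted p of 0.05 in DESeq2. They then enter the fit through their Chelator counts alone, against libraries at 0, so this supports nothing by itself and its fitted values measure no change. The neuronal genes GAP43, STMN2, DCX, MAP2 and UCHL1 had 8, 18, 6, 4 and 1 counts in DMSO replicate 3 and 0 in DMSO replicates 1 and 2, whereas ELAVL3 had 4 counts in DMSO replicate 2 alone of the DMSO libraries. The summed level of all 16 neuronal genes was 29.1 to 41.0 TPM in DMSO and 70.2 to 75.9 TPM in Chelator, nearly all of it from MAP1B, TUBB3, ENO2 and SYP rather than from these low genes. What these low counts come from was not tested. INA also shares 2.83% of its windows of 31 bases with NT5C2.

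VIM, at chr10:17228241-17237593 (+ strand), encodes vimentin. It had counts of 24682, 22859.7 and 22766 in DMSO and 73752, 68775 and 56676 in Chelator. Its level was 186, 209 and 195 TPM in DMSO and 517, 454 and 440.3 TPM in Chelator, the groups far from overlapping. The mean rose from 197 ± 11.2 to 470.3 ± 41.1 TPM (SD, n = 3 libraries each). The log2 fold change was 1.23 (SE 0.088; DESeq2 adjusted p 9.07e-43), a 2.35-fold rise with a 95% interval of 2.08 to 2.64. It passed in each of the 15 alternative processings, which ranged from 1.05 to 1.28. Of the windows of 31 bases in its main transcript, 47.4% also occur, on either strand, in VIM-AS1 or ENSG00000234961, antisense RNAs that overlap the gene. VIM-AS1 had 237 to 423 counts and stood at 0.09 on the log2 scale (SE 0.17; DESeq2 adjusted p 0.75). ENSG00000234961 had 0 to 9 counts. Because the strandedness of the libraries is not given in the sources used here, sense and antisense reads of the overlap cannot be told apart, and the counts of the 3 genes are Salmon's division of such reads.

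The 3 lamin genes together were at 358 ± 24.6 TPM in DMSO and 363 ± 9.56 TPM in Chelator (SD, n = 3), with overlapping groups. LMNA (chr1:156082573-156140081, + strand), which encodes lamins A and C, was at 149.8, 166 and 151 TPM in DMSO and 164, 163 and 166 TPM in Chelator. Its groups overlapped, and its log2 fold change was 0.05 (SE 0.064; DESeq2 adjusted p 0.60) with a 95% interval of 0.949-fold to 1.13-fold. With the libraries centred it was -0.13, and with GC content and length trends removed, a setting chosen after seeing the data, it was -0.17 (adjusted p 0.0055), which passes in the other direction.

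LMNB1 (chr5:126776623-126837020, + strand) encodes lamin B1, which keeps its farnesyl anchor for the life of the protein. It was at 94.3, 103 and 87.2 TPM in DMSO and 105, 115 and 109.7 TPM in Chelator, the lowest Chelator library only just above the highest DMSO library. Its log2 fold change was 0.18 (SE 0.067; DESeq2 adjusted p 0.021), a 1.13-fold rise. It no longer passed in 6 of 15 alternatives, with an adjusted p of 0.0504 to 0.98, among them centring, limma (0.069), and leaving out DMSO replicate 3 (0.11), Chelator replicate 2 (0.066) or Chelator replicate 3 (0.057).

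LMNB2 (chr19:2427638-2456959, - strand) encodes the other B-type lamin. It was at 104, 117 and 102 TPM in DMSO and 83.2, 90.6 and 91.8 TPM in Chelator, without overlap. It fell by 0.31 on the log2 scale (SE 0.064; DESeq2 adjusted p 6.48e-06), and it passed in all 15 alternatives, from -0.49 to -0.27. The ratio of LMNB1 to LMNB2 TPM was 0.90, 0.89 and 0.85 in DMSO and 1.26, 1.26 and 1.20 in Chelator, so LMNB2 was the more abundant B-type lamin RNA in each DMSO library and LMNB1 in each Chelator library. The exact two-sided permutation p over the 6 libraries was 0.1, the smallest that 3 against 3 allows. LMNA relative to both B-type genes was 0.77 ± 0.024 in DMSO and 0.83 ± 0.036 in Chelator (SD, n = 3; exact permutation p 0.1).

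**Figure D2:**
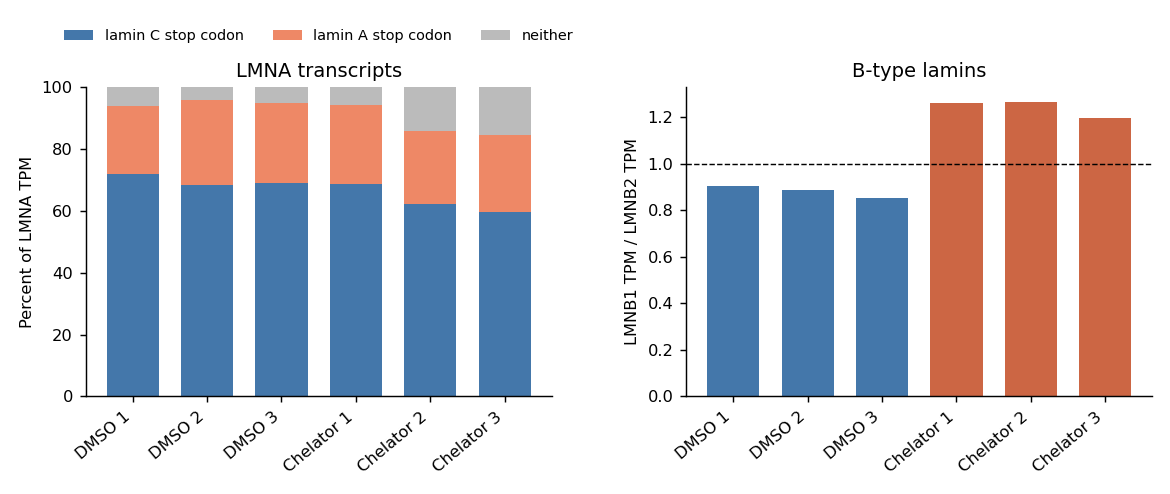
Left, percent of LMNA TPM in transcripts that end at the lamin C stop codon, the lamin A stop codon or neither, in each library. Right, the ratio of LMNB1 to LMNB2 TPM in each library, with a dashed line at 1; DMSO libraries lie below it at 0.85 to 0.90 and Chelator libraries above it at 1.20 to 1.26.

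Of the 42 annotated LMNA transcripts, 9 end at the lamin A stop codon and 3 at the lamin C stop codon. Lamin A transcripts held 25.3 ± 2.87% of LMNA TPM in DMSO and 24.6 ± 1.04% in Chelator (SD, n = 3; exact permutation p 0.8). Lamin C transcripts held 69.7 ± 1.87% in DMSO and 63.6 ± 4.63% in Chelator (exact permutation p 0.2), with values of 68.8%, 62.4% and 59.8% in the Chelator libraries. Transcripts with neither end held 6.01%, 3.95% and 4.92% in DMSO and 5.67%, 14.1% and 15.5% in Chelator, so Chelator replicate 1 stayed with the DMSO libraries. Across all 11938 genes tested for transcript usage, 9.22% were called, and none of LMNA (adjusted p 0.57), LMNB1 (0.44), LMNB2 (0.56) and VIM (1.0) was among them in edgeR's usage test.

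**Figure D3:**
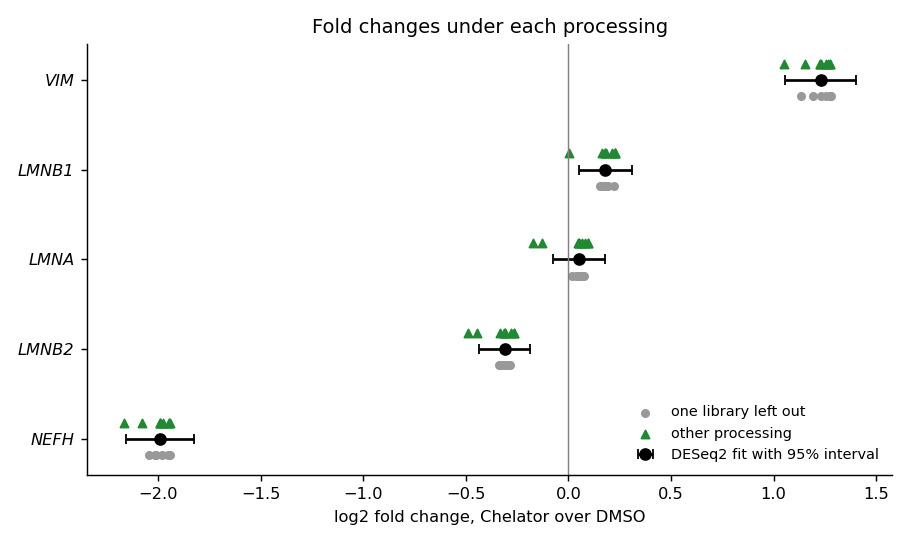
Log2 fold change (Chelator over DMSO, horizontal axis) of 5 genes, with the DESeq2 value and its 95% interval in black, values with 1 library left out as grey points and other processings as green triangles. VIM, LMNB2 and NEFH keep their side of 0 throughout, LMNB1 reaches 0.00 when centred, and LMNA crosses 0 in 2 processings.

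Taken as 1 pool, the 8 genes summed to 556, 619.7 and 558 TPM in DMSO and to 875, 828 and 814 TPM in Chelator. VIM held 34.1 ± 0.77% of the pool in DMSO and 56.0 ± 2.72% in Chelator, lamin genes 62.0 ± 0.94% and 43.3 ± 2.72%, and NEFH 3.95 ± 0.18% and 0.70 ± 0.016% (SD, n = 3 each). VIM relative to the lamins was 0.54, 0.54 and 0.57 in DMSO and 1.47, 1.23 and 1.20 in Chelator (exact permutation p 0.1, the smallest possible). VIM RNA thus passed the sum of the lamin RNAs in each Chelator library and in no DMSO library. The ratio of VIM to NEFH TPM was 8.64 ± 0.27 in DMSO and 80.5 ± 4.39 in Chelator, a description since NEFH was chosen for its fall.

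**Figure D4:**
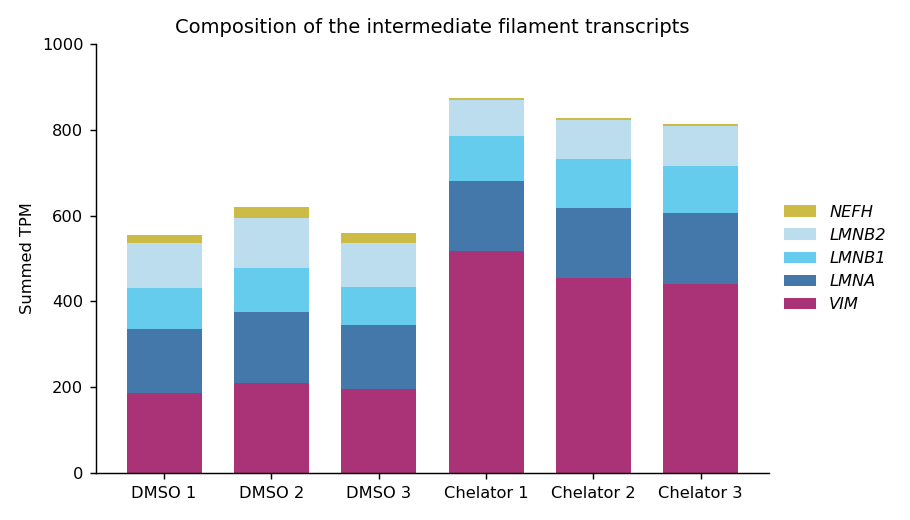
Summed TPM (vertical axis) of the 8 genes described here in each library, stacked by gene, with NEFL, NEFM and INA too low to show. Keratins, also intermediate filament genes, are not included, and their summed TPM was larger than these totals in every library. The totals were 556 to 619.7 TPM in DMSO and 814 to 875 TPM in Chelator, and the VIM segment holds 34.1% and 56.0% on average.

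The genes within 100 kb of NEFH and VIM moved in different directions. RFPL1S, a long noncoding RNA on the other strand 1.35 kb before NEFH, fell by 1.08 on the log2 scale (SE 0.28; DESeq2 adjusted p 4.86e-04). On the far side, THOC5, a subunit of an RNA export complex, was at -0.05 (SE 0.11; DESeq2 adjusted p 0.78), and NIPSNAP1 rose by 0.53 (SE 0.087; DESeq2 adjusted p 8.73e-09). Beside VIM, TRDMT1, a tRNA methyltransferase, fell by 0.98 (SE 0.16; DESeq2 adjusted p 1.33e-08). Among 10340 well-counted genes (mean of 500 or more after normalization), the 5 whose library profile lay nearest to that of NEFH were AMER1, LINC00641, POLR1G, ENTPD1 and SLIT2, at root mean square distances of 0.14 to 0.19 log2 units over the 6 libraries. Their log2 fold changes lay between -1.97 and -1.67, which the choice by likeness fixes.

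Of 9 other cytoplasmic filament genes, 8 were tested, and 4 of these passed higher and 0 lower, with a median log2 fold change of 0.80 beside 0.016 over all genes. IFFO1 had 3, 2 and 1 counts in DMSO and entered the test only through its Chelator counts, so that count supports nothing by itself. NES, which encodes nestin, the filament of progenitor cells, was at 7.31, 8.90 and 7.97 TPM in DMSO and 17.1, 14.0 and 14.5 TPM in Chelator, or 0.89 on the log2 scale (SE 0.10; DESeq2 adjusted p 3.50e-17). IFFO2 rose by 0.71 (adjusted p 9.33e-04), which did not pass with limma or without the length offset. PRPH, the peripheral neuronal filament gene, and IFFO1 were named after their values were seen: PRPH rose from 0.055, 0.046 and 0.15 TPM to 1.00, 0.68 and 1.05 TPM (log2 3.30, DESeq2 adjusted p 1.92e-08), and IFFO1 by 3.19 (adjusted p 0.0042) from under 0.02 TPM.

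Keratins, the epithelial filament proteins, pair a type I with a type II chain. Of 54, 26 were at 0 in every library and 11 were tested, and 9 of the 10 with an adjusted p passed higher, with a median of 1.70; since a low gene enters the test through the group in which it is high, this count supports nothing by itself. KRT8 was at 279, 324 and 276 TPM in DMSO and 979, 852 and 875 TPM in Chelator (log2 1.60, DESeq2 adjusted p 3.40e-83). KRT18, its usual partner, rose by 0.77 (adjusted p 3.19e-21). KRT15 rose by 2.32 and KRT12 by 1.80 (DESeq2 adjusted p 6.23e-19 and 3.11e-09). KRT79 had 4, 2 and 3 counts in DMSO and 607, 637 and 554 in Chelator. It entered the test only through its Chelator counts, so its log2 fold change of 7.30, from under 0.04 TPM, is a description. KRT8 and KRT18 have many near-copies in the genome, so the split of their reads is uncertain. Keratin TPM summed to 724 to 820.4 in DMSO and 1709.8 to 1899.7 in Chelator. This was larger in every library than the summed lamins and than the pool of 8 genes above.

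Filament linkers are proteins that join filaments to one another and to junctions. Of 15 tested, 1 passed higher and 6 lower, beside 19.5% and 18.3% of all genes, with a median of -0.26. Without DMSO replicate 2, 3 passed higher, and the median was -0.49 without Chelator replicate 1 and -0.43 when centred or without the length offset. KLHL24, a ubiquitin ligase adaptor for keratin, rose by 1.66 (DESeq2 adjusted p 2.08e-39), whereas EPPK1 and PKP2 fell by 1.00 and 0.61 (adjusted p 1.64e-15 and 8.99e-06). MACF1, at 35.1, 71.4 and 39.4 TPM in DMSO, with replicate 2 the highest, fell by 0.67 (adjusted p 0.034), which did not pass under 5 alternatives.

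Of 17 lamin partners of the inner nuclear membrane, 6 passed higher and 6 lower, beside 19.5% and 18.3% of all genes. Their median was 0.017. When centred, 3 passed higher and 7 lower, with a median of -0.16. SYNE3 rose by 1.21, TOR1AIP2 fell by 0.69 and NRM by 0.48 (DESeq2 adjusted p 1.33e-09, 4.14e-11 and 3.30e-08), and SYNE2 fell by 1.46 (adjusted p 0.0030), which did not pass without the length offset. The 5 enzymes that finish lamin ends at the CaaX box above gave 3 lower and 0 higher, beside 18.3% and 19.5% of all genes. ZMPSTE24, the protease that removes the farnesylated end of prelamin A, was at 68.8, 79.1 and 69.6 TPM in DMSO and 37.3, 33.9 and 32.8 TPM in Chelator, a fall of 1.09 (SE 0.082; DESeq2 adjusted p 1.34e-38). ICMT, the methyltransferase, fell by 0.73 (adjusted p 5.19e-20), and RCE1 fell by 0.29 (adjusted p 0.0055), which did not pass with limma or without the length offset. The farnesyltransferase subunits FNTA and FNTB did not pass, at 0.19 and -0.18 (DESeq2 adjusted p 0.070 and 0.13), though FNTA passed higher in 6 of 15 alternatives and FNTB passed lower in 3.

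Of 30 nuclear pore subunits, 23 passed lower and 2 higher, beside 18.3% and 19.5% of all genes, with a median of -0.43, and 0 passed higher with limma, when centred or without the length offset. NDC1, the membrane anchor, fell by 0.99, RANBP2 by 0.82, NUP188 by 0.80 and NUP133 by 0.77 (DESeq2 adjusted p 3.70e-32, 3.18e-14, 2.80e-27 and 2.04e-16). Among the actin and tubulin genes, which build the other filament systems, 7 of 13 passed higher and 4 lower. TUBA1A rose by 3.83, TUBB2B by 2.42 and TUBB3 by 1.92, whereas TUBB fell by 0.84 (DESeq2 adjusted p 3.01e-162, 4.78e-86, 1.17e-73 and 2.51e-33). Near-identical tubulin and actin genes share reads, so these values are uncertain.

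**Figure D5:**
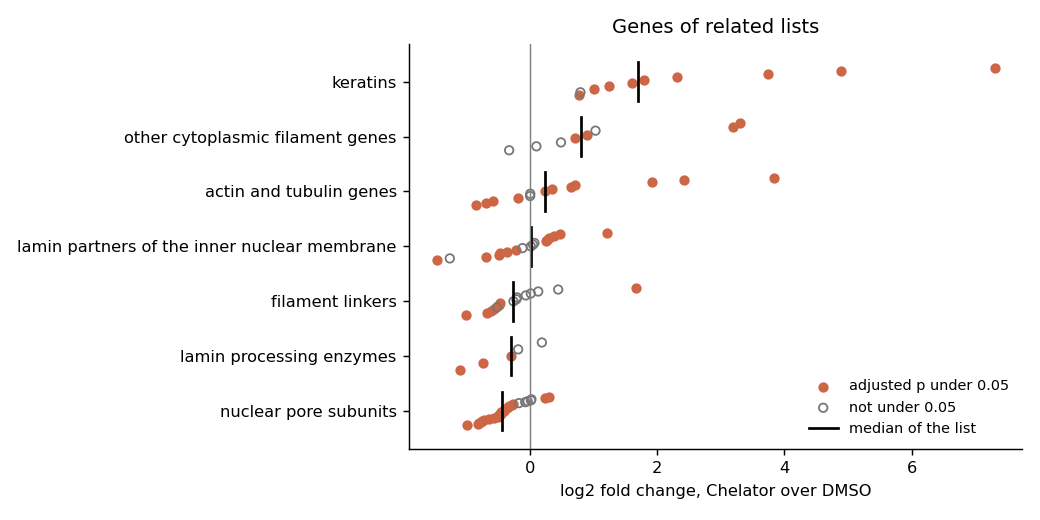
Log2 fold change (Chelator over DMSO, horizontal axis) of the genes in 7 related lists, with filled points for a DESeq2 adjusted p under 0.05, open points for others and a black bar at each list's median. The medians run from -0.43 for nuclear pore subunits to 1.70 for keratins.

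VIM and NEFH are also read as mesenchymal and neuronal genes. Of 11 mesenchymal genes, 6 passed higher and 1 lower, beside 19.5% and 18.3% of all genes, with a median of 0.56. SPARC and COL1A1 rose by 1.60 each, S100A4 by 0.89 and SNAI1 by 0.76 (DESeq2 adjusted p 2.49e-31, 1.43e-16, 0.0013 and 8.08e-09). Of 16 neuronal genes, 13 had an adjusted p, and 4 of them passed higher and 0 lower: SYN1 by 2.47, TUBB3 by 1.92, ENO2 by 1.63 and SYP by 1.57. The median over the 13 was 1.52, the value of STMN2, which did not pass, and became 0.92 without DMSO replicate 2 and 0.41 with limma. This median takes in genes at 0 in DMSO replicates 1 and 2, such as STMN2, so it supports nothing by itself. Without DMSO replicate 3, 8 passed higher, a count that supports nothing by itself, since it takes in genes at 0 in the other DMSO libraries that are tested only through their Chelator counts.

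Markers of other cells were read in the same way. Of 9 lymphoid and monocyte markers 4 passed higher and 1 lower, of 5 epithelial markers 3 higher and 1 lower, and of 7 fibroblast markers, 5 of them tested, 2 higher and 1 lower. These counts include genes tested only through the group in which they are high, such as PDGFRB with 3, 4 and 0 counts in DMSO, and support nothing by themselves. The 3 epithelial markers that passed higher were keratins already counted above. When centred, 2 of the lymphoid and monocyte markers passed higher. Of the 12 erythroid markers 4 passed higher and 3 lower, beside 19.5% and 18.3% of all genes. Their summed level was 17035 to 18623 TPM in DMSO and 22607 to 24112 TPM in Chelator. The erythroid counts were 2 higher and 6 lower when centred, and 4 higher and 7 lower with GC content and length trends removed. The part of any of these in the values of the 8 genes was not tested.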

How the data were processed

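The 6 deposited files hold, per transcript, estimated counts and TPM that the authors made with Salmon (1.10.2 per the submitters' processing notes); TPM is the estimated count per effective length, rescaled so that library totals match. The exact annotation is not given in the sources used here, and GENCODE v44 was used for names. Counts and TPM were summed per gene, and counts were rounded. Genes with more than 10 counts in total (26074) were fitted in DESeq2 1.42.0 (R 4.3.3) with a length offset and a Wald test, Benjamini-Hochberg adjusted over all genes. Genes with more than an absolute log2 fold change of 1 and an adjusted p under 0.05 were called. Transcript usage was tested in edgeR 4.0.16 (diffSpliceDGE, at least 10 counts in 3 libraries) and called at an adjusted p under 0.05 and a share change over 5 percentage points. limma 3.58.1 used log2(TPM + 0.1).

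The members and lists were chosen with earlier results of these data known. Beside the members, the text names tested genes within 100 kb of NEFH or VIM, the 5 genes nearest NEFH in profile, and up to 4 genes per list with the largest change among those with an adjusted p under 0.05 and a mean normalized count of at least 50, with marker lists of other cell types given as counts. Genes outside this rule are GAP43, STMN2, DCX, MAP2, UCHL1, ELAVL3, MAP1B, PRPH, IFFO1, FNTA, FNTB and KRT18 as a keratin, and were chosen after their values were seen. Exact permutation tests over the 6 libraries were two-sided. Floors cover counting error only, and 95% intervals come from the DESeq2 standard error, which includes the spread between libraries. Some LMNA sequence is not reported here, apart from the coding end printed.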

Additional observations from a re-analysis of the deposited data

How the results depend on the processing

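Of 163 recomputed values, 140 kept their direction and side of the threshold, or for counts and untested values stayed within the set range. Calls over all genes stayed between 2207 and 2855 (2646 as reported). VIM and LMNB2 stayed under an adjusted p of 0.05 in all 15 alternatives. Leaving out 1 library, members passing ranged from 2 to 5, the log2 fold change of NEFL from 0.51 to 6.46, of NEFM from -0.52 to 5.77, of INA from 1.52 to 5.13 and of LMNB1 from 0.15 to 0.22, the lamin A share difference from -2.27 to 0.51 percentage points, and usage calls from 539 to 1063, the 2 lowest (592 and 539) without Chelator replicates 2 and 3. Centring the libraries gave -2.17 for NEFH, -0.13 for LMNA and 0.0024 for LMNB1, and the removal of GC content and length trends, added after seeing the data, gave -0.17 for LMNA. LMNB1 was 0.21 with limma and 0.18 in the fit with a replicate block. The replicate block gave 3.91 for NEFL, which then passed with all libraries kept (DESeq2 adjusted p 0.031), and 2345 calls over all genes, and besides NEFL and LMNB1 (adjusted p 0.0504) moved no member across the threshold. Libraries with the same number deviated together with correlations of -0.0036, 0.13 and 0.094 across genes, and DMSO replicate 1 correlated best with Chelator replicate 3, so the numbers were not taken to pair the libraries. limma's usage test called 2462 genes, against 1101. The lamin A share difference was 0.30 points on counts and 1.15 points in complete coding transcripts alone, against -0.69. INA gave no adjusted p in 4 alternatives. The cause of these changes was not tested, apart from DMSO replicate 3, whose counts made up the DMSO values of NEFL, NEFM and INA.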

Other observations

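Genes at 0 in 2 DMSO libraries and with at least 3 counts in the remaining DMSO library and in every Chelator library numbered 60, 67 and 50 when the library with counts was DMSO replicate 1, 2 and 3, with NEFL, NEFM and INA among the last. A further 163 genes were at 0 in every DMSO library with at least 3 counts in every Chelator library.

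Transcripts of LMNB2 annotated with a retained intron held 1.95%, 0% and 0% of its TPM in DMSO and 2.17%, 5.62% and 3.69% in Chelator. The corresponding transcripts of LMNA held 2.27% to 4.51% in DMSO and 4.10% to 7.94% in Chelator, with overlap. In edgeR's usage test the LMNB2 adjusted p of 0.56 became 6.81e-05 without DMSO replicate 1 and 0.024 in limma, with a share change of 3.83 and 3.18 percentage points, under the 5 points set for a call.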
